A study of Mus musculus with 6 samples.

Results

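The genes described here are those of the major histocompatibility complex (MHC) and of the machinery that loads its proteins with peptides, measured in the whole colon of wild-type mice and of mice without NHE3. NHE3 is the Slc9a3 product, which exchanges sodium for protons at the surface of gut epithelium. Members were all genes whose array annotation carries a symbol beginning with H2-, and the genes of a list of 15 further ones in antigen processing, each through probe sets that name that gene alone. This gave 37 genes, 24 of the class I pathway, 12 of the class II pathway and 1 of neither, among 18194 genes named on the array. The rule used no measured difference between genotypes. Psme2, the partner of Psme1, was read only by a probe set that names a second gene and is not analysed here.

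RNA from whole colon was hybridised to Affymetrix MOE430 2.0 arrays, 3 for NHE3+/+ (wild type) and 3 for NHE3-/- (deficient), at an age of 6 to 8 weeks. Strain, sex, the number of animals behind an array and the way Slc9a3 was disrupted are not given in the labels. The labels name no treatment. They also do not say that arrays of 1 genotype came from separate animals, so the spread behind each p-value is that of these samples and may be technical. MHC genes differ between mouse strains, and short probes can read alleles unequally. Values are signals on a linear scale, and a log2 fold change is the NHE3-/- mean minus the NHE3+/+ mean of log2(signal + 31.4), with limma's standard error (SE) and with p adjusted over the 27022 probe sets tested. The number of arrays limits the precision.

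The brighter probe set of Slc9a3, the targeted gene, had signals of 5908, 5647 and 6669 in wild type and of 5970, 4266 and 3665 in NHE3-/- colon (log2 fold change -0.42, adjusted p = 0.120). A dim one had 346, 345 and 108 against 473, 609 and 265 (0.76, adjusted p = 0.230). The genotypes overlapped by both, and where the probes lie against the disrupted part is not known here, so Slc9a3 gives no check of the labelled genotypes, which are used as the labels give them.

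Class I molecules are a heavy chain (H2-K1, H2-D1 and their relatives) bound to the light chain beta-2 microglobulin. They present peptides that the proteasome cuts in the cytosol, that the TAP transporter carries into the endoplasmic reticulum and that tapasin helps to load. Nearly every nucleated cell makes them, and interferon-gamma raises the whole pathway through Irf1 and the transactivator Nlrc5. Class II molecules are an alpha and a beta chain that travel with the invariant chain Cd74 to endosomes, where proteases such as cathepsin S remove Cd74 and H2-DM exchanges its remnant for peptide, an exchange that H2-DO restrains. B cells, dendritic cells and macrophages make class II constantly, through the transactivator Ciita, and gut epithelium can be induced to make it.

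Of the 37 genes, 35 passed the filter on low values, and H2-D4 and H2-M9 did not, with signals of at most 25.7 and 82.9 on any array. Among the 35, Psme1, Psmb10 and Tapbpl were higher in NHE3-/- colon and H2-Ob was lower at an adjusted p under 0.05. That is 4 of 35, or 11.4% of the members, against 11.2% of all probe sets tested, and by direction 8.57% higher against 4.97% and 2.86% lower against 6.24%. The share called was thus near that of the whole array. At an unadjusted p under 0.05 were 6 of 22 class I and 6 of 12 class II members, beside 7459 of all 27022 probe sets. By this count the class I share was near that of all probe sets and the class II share above it. Arrays of the 2 genotypes did not overlap for 9 members, 4 higher and 5 lower, where 32.3% of all probe sets did not overlap. The median log2 fold change was 0.20 over 22 class I members and 0.45 over 12 class II members, beside -0.10 over all probe sets. With array medians set equal these medians were 0.31, 0.57 and 0.01, and after quantile normalization 0.14, 0.34 and -0.02. The first setting raised every median. Quantile normalization lowered those of the members and raised that of all probe sets. Over all probe sets, 1342 were called higher and 1685 lower as deposited, 1595 and 738 with medians set equal, and 1338 and 1332 after quantile normalization.

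**Figure D1:**
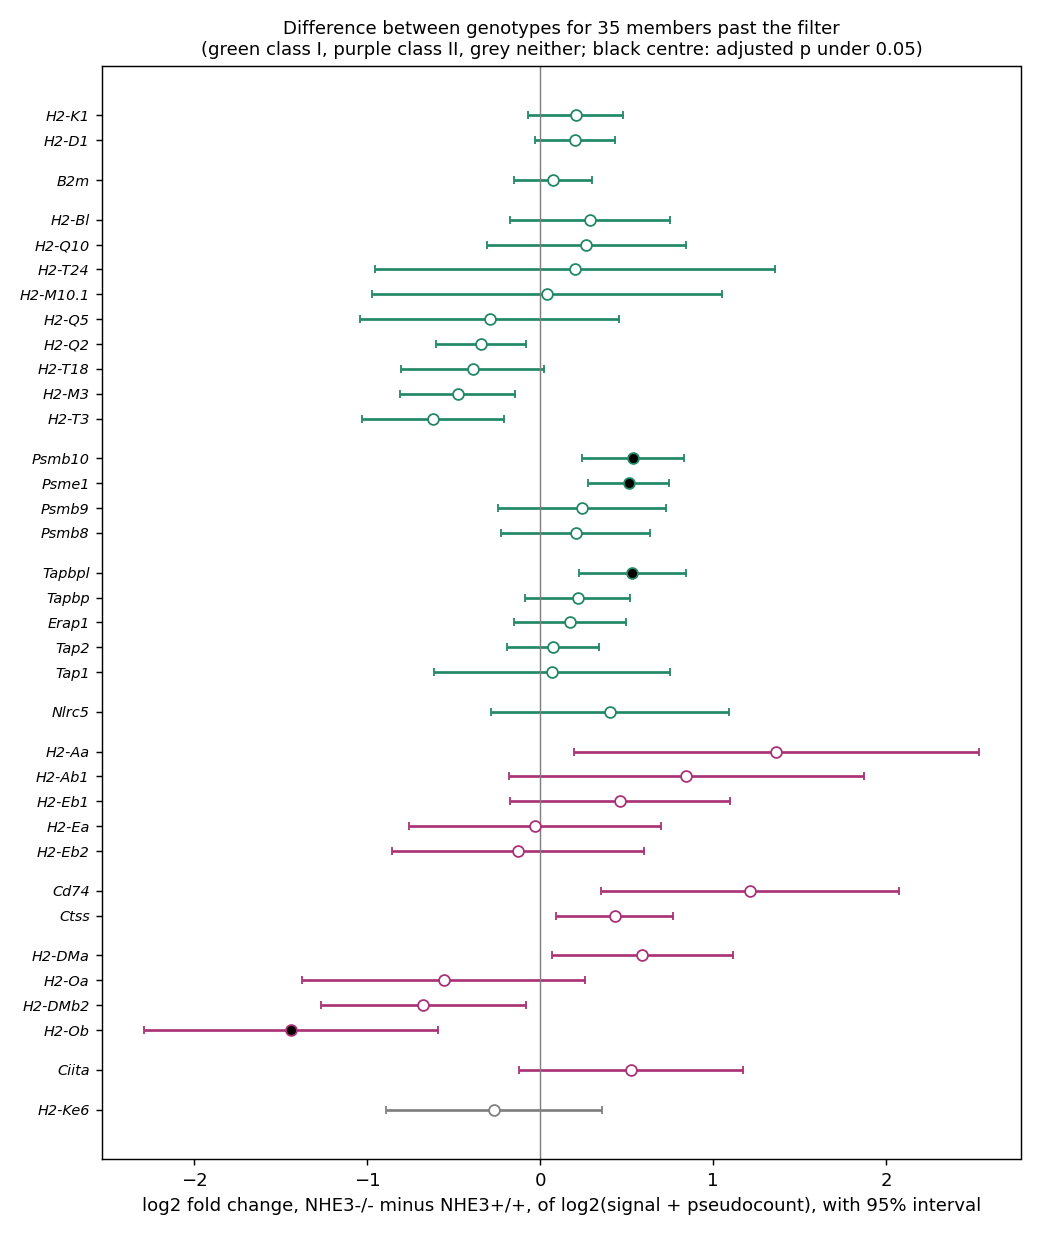
Log2 fold change of NHE3-/- against NHE3+/+ colon (horizontal axis, log2 units, with 95% interval) for the 35 members past the filter, grouped by role, with green for class I, purple for class II and grey for H2-Ke6. Black centres mark the 4 members past the threshold: Psmb10, Psme1 and Tapbpl lie near 0.5 with narrow intervals, while the class II intervals are wide and run from H2-Aa at 1.37 to H2-Ob at -1.44.

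Because several class II genes shared a pattern over the arrays, the 120 bases before the start sites of 4 of them are shown, from RefSeq promoters of GRCm38.p6. H2-Aa (chr17:34287824-34287943, minus strand) and H2-Eb1 (chr17:34305747-34305866, plus strand) encode chains of the 2 class II molecules. H2-Oa (chr17:34092259-34092378, plus strand) and H2-Ob (chr17:34238785-34238904, plus strand) encode the chains of H2-DO. Capitals mark matches on the strand shown to the Y box of class II promoters (CTGATTGG) and its core (ATTGG), and to a pattern of the X box, which lies upstream of the Y box.
H2-Aa: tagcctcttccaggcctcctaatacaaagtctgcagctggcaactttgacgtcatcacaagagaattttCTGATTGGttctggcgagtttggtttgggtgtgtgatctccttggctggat
H2-Eb1: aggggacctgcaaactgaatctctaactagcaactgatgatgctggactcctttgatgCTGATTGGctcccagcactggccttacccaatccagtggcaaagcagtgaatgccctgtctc
H2-Oa: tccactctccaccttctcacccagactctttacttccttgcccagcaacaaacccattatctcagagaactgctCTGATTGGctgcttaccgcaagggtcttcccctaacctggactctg
H2-Ob: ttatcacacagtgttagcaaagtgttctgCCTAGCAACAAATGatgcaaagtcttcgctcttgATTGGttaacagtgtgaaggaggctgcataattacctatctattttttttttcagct

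Promoters of 25 members were searched. Chromosome 18 was left out of the search for members, and with it Cd74, but not out of the shares over all promoters. Within 250 bases before the start, on either strand, CTGATTGG was found for 4 of 8 class II members (H2-Aa, H2-Eb1, H2-Eb2 and H2-Oa) and 5 of 16 class I members, and in 3.83% of the 32851 promoters in the table. Its core ATTGG, which every CTGATTGG contains, was found for 7 of 8 class II members, in 10 of 16 class I members and in 33.8% of promoters. The X box pattern was found before H2-Ob alone among the members searched and in 0.161% of promoters. Only exact matches were counted, so a variant of the X box before another member would be missed. A pattern of the interferon-stimulated response element was found before B2m and Ctss (2.98% of promoters), and the gamma-activated site TTCNNNGAA before Psmb8, H2-M3 and H2-DMb2 (7.02%). These are matches of letters only. The letters CTGATTGG stood before H2-Aa and H2-Eb1, whose signals on NHE3-/- arrays 2 and 3 lay above the wild-type range, and also before H2-Oa, whose signals there lay below it.

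Of 5 class II chains, H2-Aa, H2-Ab1 and H2-Eb1 had their highest signals on NHE3-/- arrays 2 and 3, and H2-Ea and H2-Eb2 did not. H2-Aa, the alpha chain of the molecule I-A, had signals of 2188, 4827 and 1560 on the wild-type arrays 1, 2 and 3, and of 2398, 11252 and 10700 on the NHE3-/- arrays. Its partner H2-Ab1 had 1396, 2006 and 853 in wild type and 945, 4196 and 3588 in NHE3-/- colon. For both, arrays 2 and 3 lay above every wild-type array and array 1 lay within the wild-type range, so the genotypes overlapped. The log2 fold changes were 1.37 (SE 0.53, adjusted p = 0.124) and 0.85 (SE 0.47, adjusted p = 0.269). Other probe sets gave 1.13, 1.47 and 1.59 for H2-Aa and 1.48 and 1.40 for H2-Ab1, with none called, and the H2-Ab1 value given first is the smallest of its 3.

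H2-Eb1, the beta chain of the second class II molecule, I-E, had 2102, 3046 and 2441 in wild type and 1904, 4526 and 4773 in NHE3-/- colon. Here NHE3-/- array 1 was the lowest of all 6 and arrays 2 and 3 the highest (log2 fold change 0.46, SE 0.29, adjusted p = 0.328). H2-Ea, its alpha chain, is a transcribed pseudogene in the RefSeq annotation of C57BL/6J, and its signals of 255, 256 and 167 in wild type and 180, 135 and 406 in NHE3-/- colon followed no such pattern (-0.03, SE 0.33, adjusted p = 0.967). H2-Eb2, a second beta chain gene, had 92.2, 183 and 84.6 against 144, 105 and 67.5, overlapping, with NHE3-/- array 3 below the wild-type range (-0.13, SE 0.33, adjusted p = 0.839).

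Cd74, the invariant chain, had signals of 3825, 6039 and 3816 in wild type and of 4535, 15010 and 16341 in NHE3-/- colon. As with H2-Aa, array 1 lay among the wild-type arrays while arrays 2 and 3 stood far above them (log2 fold change 1.21, SE 0.39, adjusted p = 0.0711). Ctss, cathepsin S, differed in its pattern. It had 10574, 9922 and 9490 in wild type and 13006, 10751 and 17532 in NHE3-/- colon, all 3 above every wild-type array, with the lowest on array 2 (0.43, SE 0.15, adjusted p = 0.0953). Ciita, the class II transactivator, was dim, with 134, 196 and 90.6 in wild type and 142, 247 and 253 in NHE3-/- colon. Its order over the NHE3-/- arrays was that of Cd74, at a smaller size (0.52, SE 0.29, adjusted p = 0.278), and its other 2 probe sets gave 0.54 and 0.59.

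**Figure D2:**
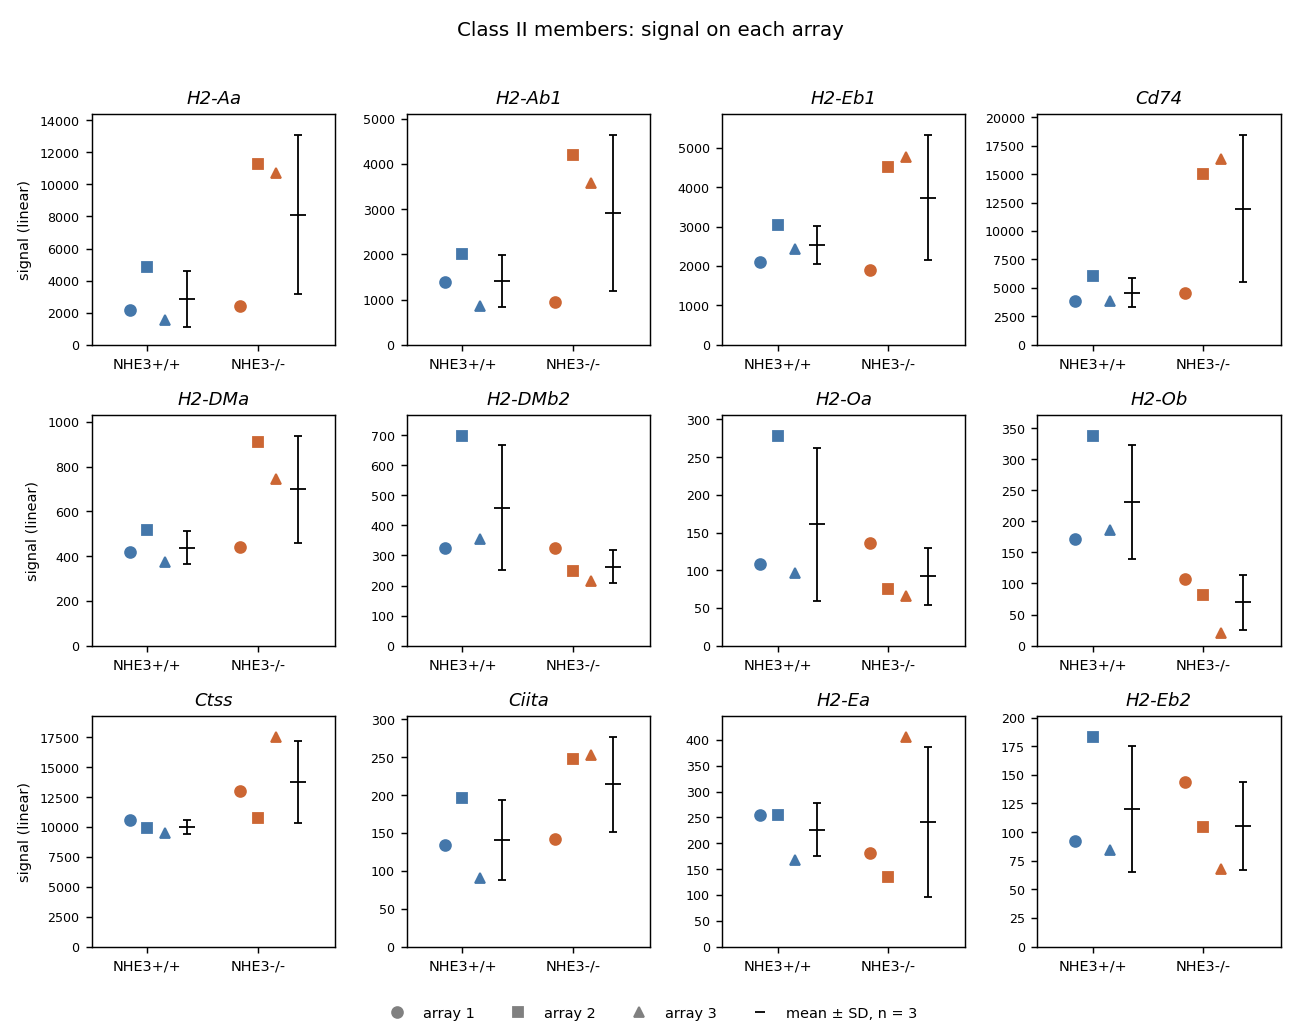
Signal (vertical axis, linear, from 0) of the 12 class II members on each array, with blue for NHE3+/+, orange for NHE3-/-, symbols for arrays 1 to 3 and a bar for mean ± SD (n = 3). H2-Aa, H2-Ab1, H2-Eb1, Cd74 and H2-DMa show NHE3-/- array 1 at wild-type level below arrays 2 and 3, while H2-DMb2 and H2-Ob show all 3 NHE3-/- arrays below the wild-type arrays.

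The genes of peptide exchange differed in direction. H2-DMa, the alpha chain of H2-DM, had 418, 519 and 375 in wild type and 439, 909 and 745 in NHE3-/- colon, with array 1 again at wild-type level (log2 fold change 0.59, SE 0.24, adjusted p = 0.136). H2-DMb2, a beta chain gene of H2-DM, had 325, 698 and 355 against 324, 250 and 216. All 3 NHE3-/- arrays lay below the wild-type arrays, array 1 barely, at 323.9 against a lowest wild-type value of 324.8 (-0.67, SE 0.27, adjusted p = 0.133), and its other 2 probe sets gave -0.91 without and -0.96 with overlap. H2-Ob, the beta chain of H2-DO, had 172, 337 and 185 in wild type and 107, 82.2 and 20.4 in NHE3-/- colon. The genotypes did not overlap, and H2-Ob fell by 1.44 on the log2 scale (SE 0.39, 95% interval -2.29 to -0.59, adjusted p = 0.0363). The lowest value, on array 3, lies under the 25th percentile of all signals. Its partner H2-Oa had 108, 278 and 96.4 against 136, 75.2 and 65.9, with array 1 inside the wild-type range and arrays 2 and 3 below it (-0.56, SE 0.37, adjusted p = 0.362).

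The H2-Ob call was the only one in class II and rested on few arrays. It was lost when any wild-type array was left out (log2 fold changes -1.60, -1.17 and -1.55 without arrays 1, 2 and 3) and without NHE3-/- array 2 (-1.58) or 3 (-1.02), with adjusted p from 0.0510 to 0.135, and held in 6 of 15 alternative settings. Conversely, 5 class II members were called higher without NHE3-/- array 1: Cd74 (1.81, adjusted p = 0.000481), H2-Aa (2.09, adjusted p = 0.00671), H2-Eb1 (0.89, adjusted p = 0.00912), H2-Ab1 (1.51, adjusted p = 0.00996) and H2-DMa (0.88, adjusted p = 0.0245). That fit called 940 of the 27022 probe sets higher. NHE3-/- array 1 was the lowest of its group for these 5 genes, so leaving it out was bound to raise their fold changes. Wild type was also compared with only the third NHE3-/- array, whose spread is assumed equal to that of wild type. The largest class II rises there were those of H2-Aa (2.06), Cd74 (1.87), H2-Ab1 (1.40), H2-Eb1 (0.92) and Ctss (0.81). With array medians set equal, Cd74 (1.33, adjusted p = 0.0209) and Ctss (0.55, adjusted p = 0.0382) were called. Without NHE3-/- array 2 Ctss was called (0.60).

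Counted against the wild-type range, 1 of 12 class II members on NHE3-/- array 1 lay above the highest wild-type array, 7 did on array 2 and 8 on array 3. Over all probe sets these shares were 24%, 23.1% and 27.5%. Below the lowest wild-type array lay 3, 4 and 4 of the 12, against 38.1%, 36.7% and 39.8% of all probe sets. On array 3 each of the 12 class II members was therefore outside the wild-type range, 8 above and 4 below. The spread between arrays of a genotype was also wider than usual: the median SD on the log2 scale was 0.46 in wild type and 0.62 in NHE3-/- colon for class II members, 0.21 and 0.26 for class I members, and 0.22 and 0.21 for all probe sets.

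Wild-type array 2 was the highest of its group for 11 of 12 class II members, the exception being Ctss. Markers of leukocytes stood high on the same array. The summed signal of 11 B cell markers was 6469 there, against 2608 and 3552 on wild-type arrays 1 and 3, and that of 6 markers shared by leukocytes was 8939 against 3988 and 4186. Those of 7 T cell markers (1582 against 688 and 660) and of the adipose markers Adipoq and Fabp4 (2336 against 802 and 468) stood high there too. In NHE3-/- colon, with adipose sums of 181, 416 and 84.4, Adipoq (log2 fold change -1.77) and Fabp4 (-2.08) fell, as did the pancreatic marker Clps (-2.36). The other pancreatic markers past the filter, Cela1 (-0.27) and Prss2 (-0.41), were not called. The part of leukocytes, adipose tissue and pancreas in the values of the members was not tested.

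The summed signal of the B cell markers was highest in NHE3-/- colon on array 1, where H2-Aa, H2-Ab1 and H2-Eb1 were lowest. It was 2704 on array 1, 1527 on array 2 and 1250 on array 3, against 2608 to 6469 in wild type. Of 11 measured, Fcer2a, the low-affinity IgE receptor of follicular B cells, Bank1, an adaptor of B cell receptor signalling (log2 fold change -1.36), and Spib, a transcription factor of B cells and of some epithelial cells (-0.82), fell and none rose, where 6.24% of all probe sets fell. Fcer2a went from 350 ± 211 to 56.7 ± 28.4 (SD, n = 3 each). The median of the list was -1.08, with Pax5 alone above 0 at 0.16, and Ms4a1, which encodes CD20, had 408, 1161 and 587 in wild type and 526, 202 and 98.9 in NHE3-/- colon. H2-Ob, H2-Oa and H2-DMb2 were lowest on array 3, as Ms4a1 was. In whole tissue, fewer cells of a type and less RNA per cell cannot be told apart, and the part of B cells in the class II values was not tested.

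**Figure D3:**
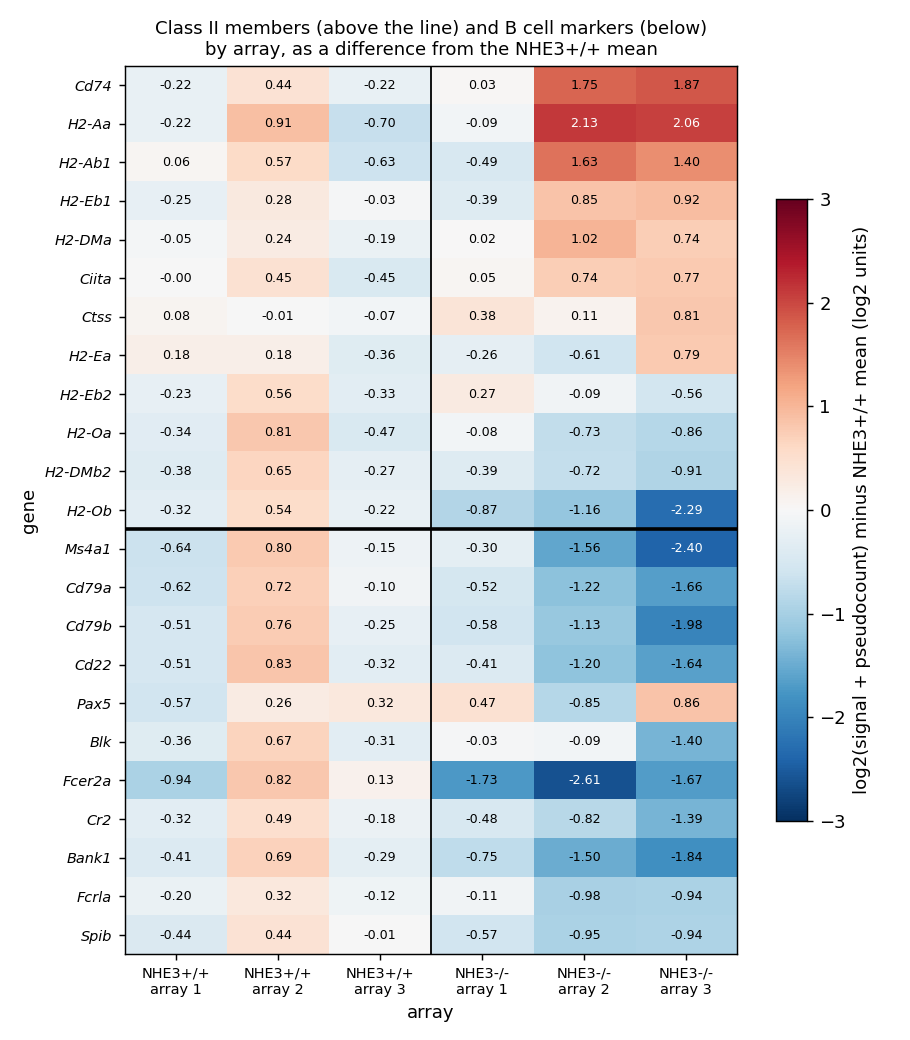
Each cell gives log2(signal + 31.4) on 1 array minus the NHE3+/+ mean, in log2 units, for the 12 class II members above the line and 11 B cell markers below it. On NHE3-/- arrays 2 and 3, Cd74 (1.75 and 1.87) and H2-Aa (2.13 and 2.06) are red where Ms4a1 (-1.56 and -2.40) and H2-Ob (-1.16 and -2.29) are blue.

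In median, markers of the other cells that present antigen through class II differed less than those of B cells, though Cd14 differed strongly. Of 12 measured macrophage markers, Cd14, a coreceptor for lipopolysaccharide, rose (1.51, SE 0.15) and none fell, beside 4.97% and 6.24% of all probe sets. The median of this list was 0.02 and its summed signal was 5990 to 9362 in wild type and 7808 to 10467 in NHE3-/- colon. Without Cd14 the sum was 4601 to 7994 in wild type and 4680 to 5944 in NHE3-/- colon, inside the wild-type range on all 3 arrays. Of 9 dendritic cell markers only Itgax and Flt3 passed the filter, neither called nor at an unadjusted p under 0.05, with a sum of 147 to 264 in wild type and 154 to 247 in NHE3-/- colon. Zbtb46, Xcr1, Batf3, Ccr7, Cd209a and Siglech were under the filter, and Clec9a is not analysed here. None of 6 leukocyte markers was called by limma, and 2 were at an unadjusted p under 0.05, beside 7459 of all 27022 probe sets. The sum of the 6 was 3988 to 8939 in wild type and 4412, 3470 and 2479 on NHE3-/- arrays 1, 2 and 3. All 12 markers of colon epithelium passed the filter, with sums of 281557 to 347325 and of 317150 to 386672. Vil1 and Slc26a3 rose and Cdx2 fell among them, beside 4.97% and 6.24% of all probe sets. The part of these cells in the class II values was not tested.

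Sex was not balanced between the genotypes. Xist, the RNA of the inactive X chromosome, had signals of 2639 and 1929 on NHE3-/- arrays 1 and 2 and at most 12.3 on the other 4. The Y-linked gene Eif2s3y had 933 and 1088 on those 2 arrays and 1355 to 1809 on the others, and Kdm5d had 341 and 406 against 654 to 784. Uty, also Y-linked, had 339 and 317 against 241 to 451, overlapping. RNA of both kinds was thus read on both arrays. The part of sex in the values of the members was not tested.

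In class I, the classical heavy chains and their light chain were not called. H2-K1 had signals of 24183, 29140 and 22048 in wild type and 25484, 29422 and 31842 in NHE3-/- colon, with array 1 inside the wild-type range (log2 fold change 0.21, SE 0.13, 95% interval -0.07 to 0.48, adjusted p = 0.314). H2-D1 had 23704, 26945 and 24207 against 26641, 27406 and 32163 (0.20, SE 0.11, 95% interval -0.03 to 0.43, adjusted p = 0.246). B2m, beta-2 microglobulin, had 29225, 32528 and 26430 against 29365, 32208 and 30997, every NHE3-/- value inside the wild-type range (0.07, SE 0.10, 95% interval -0.15 to 0.30, adjusted p = 0.687). A second B2m probe set gave 0.26 (SE 0.12, adjusted p = 0.178). H2-K1 and H2-D1 are near copies of each other and of other heavy chain genes, and both are read by probe sets of a kind (suffix x_at) whose probes can also match related transcripts, so their signals may be shared. Their further probe sets past the filter, 3 for H2-K1 and 7 for H2-D1, gave log2 fold changes from 0.14 to 0.47 and from -0.08 to 0.94, with none called. H2-Aa, H2-DMb2 and H2-T18 were also read by x_at probe sets, so their signals too may include related transcripts.

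The other heavy chains are relatives of the classical ones with narrower roles. Of 9 past the filter none was called, and 3 were at an unadjusted p under 0.05, beside 7459 of all 27022 probe sets. Of the 9, 4 had positive and 5 negative log2 fold changes, and the median was -0.29. H2-T3, which encodes the thymus leukaemia antigen found on gut epithelium, had 1512, 1287 and 1418 in wild type and 1046, 1094 and 640 in NHE3-/- colon. The groups did not overlap, and the fold change of -0.62 (SE 0.19, adjusted p = 0.0566) missed the threshold. A second H2-T3 probe set gave -0.19, and its arrays overlapped. H2-M3, which presents formylated bacterial and mitochondrial peptides, had 527, 499 and 541 against 345, 357 and 400 (-0.48, SE 0.15, adjusted p = 0.0673). H2-Q2 had 2470, 2106 and 1959 against 1720, 1654 and 1742 (-0.34, SE 0.12, adjusted p = 0.0880). In these 3 genes all NHE3-/- arrays lay below all wild-type arrays, as they did for 20.1% of all probe sets. H2-T3 was called with NHE3-/- array 3 alone (-1.10) and without NHE3-/- array 2 (-0.75), and H2-T3 and H2-M3 were called with the filter at the 60th percentile, H2-M3 also as a mean over probe sets of each gene.

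The remaining heavy chains overlapped between genotypes. H2-T18, a close relative of H2-T3, had 880, 712 and 1104 in wild type and 711, 535 and 783 in NHE3-/- colon (-0.39, SE 0.19, adjusted p = 0.207). H2-Bl, a transcribed pseudogene in RefSeq, had a log2 fold change of 0.29 (SE 0.21), and H2-Q10, whose product is secreted by liver, had 0.27 (SE 0.26). The dim H2-Q5 (-0.29, SE 0.34), H2-T24 (0.20, SE 0.52) and H2-M10.1 (0.04, SE 0.46) had signals of at most 146 on any array and intervals over 1 log2 unit wide. H2-Ke6, which encodes a hydroxysteroid dehydrogenase and presents no antigen, had -0.26 (SE 0.28), with 324 on NHE3-/- array 2 against 570 to 845 elsewhere.

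Psme1 and 1 of the 3 immunoproteasome subunits rose, beside 4.97% of all probe sets. Psme1, the alpha subunit of the proteasome activator PA28, had 5817, 6006 and 4893 in wild type and 7801, 8360 and 7634 in NHE3-/- colon. All 3 NHE3-/- arrays stood above all wild-type arrays and close together (log2 fold change 0.51, SE 0.11, 95% interval 0.28 to 0.75, adjusted p = 0.0123). Psmb10, the trypsin-like subunit of the immunoproteasome, had 4003, 4562 and 3450 against 5410, 6789 and 5299, again without overlap (log2 fold change 0.54, SE 0.13, 95% interval 0.25 to 0.83, adjusted p = 0.0264). The other subunits had overlapping arrays. Psmb8 had 2601, 2963 and 2194 in wild type and 2449, 4218 and 2521 in NHE3-/- colon (0.21, SE 0.19, adjusted p = 0.533). Psmb9 had 1760, 1759 and 1223 against 1583, 2710 and 1467 (0.24, SE 0.22, adjusted p = 0.518). For both, array 2 stood above every wild-type array while arrays 1 and 3 lay inside the wild-type range. Of the subunits they replace, Psmb5 (0.21), Psmb6 (-0.01) and Psmb7 (0.21), none was called, and 0 were at an unadjusted p under 0.05.

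Among genes of peptide transport and loading, 1 of 5 rose and none fell, beside 4.97% and 6.24% of all probe sets. Tapbpl, the tapasin-related protein TAPBPR that edits the peptides of class I molecules, had 799, 901 and 888 in wild type and 1073, 1466 and 1272 in NHE3-/- colon, without overlap (0.53, SE 0.14, 95% interval 0.22 to 0.84, adjusted p = 0.0342). Its second, dim probe set gave 0.79 without a call. Tapbp, tapasin itself, had 6055, 7717 and 6532 against 6711, 9393 and 7615 (0.22, SE 0.14, adjusted p = 0.334), and a second probe set gave 0.52 without overlap or a call. Tap1, a subunit of the peptide transporter, had 757, 1081 and 511 in wild type and 531, 1298 and 701 in NHE3-/- colon, highest on array 2 (0.07, SE 0.31, adjusted p = 0.914). Tap2, the other transporter subunit, varied little, with 1156, 1296 and 1085 against 1204, 1314 and 1207 (0.08, SE 0.12, adjusted p = 0.731). Erap1, the aminopeptidase that trims peptides in the endoplasmic reticulum, had 0.17 (SE 0.15) and -0.19 by its second probe set, neither called. Nlrc5, the class I transactivator, had 97.8, 230 and 144 in wild type and 147, 303 and 199 in NHE3-/- colon, overlapping (0.40, SE 0.31, adjusted p = 0.433).

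**Figure D4:**
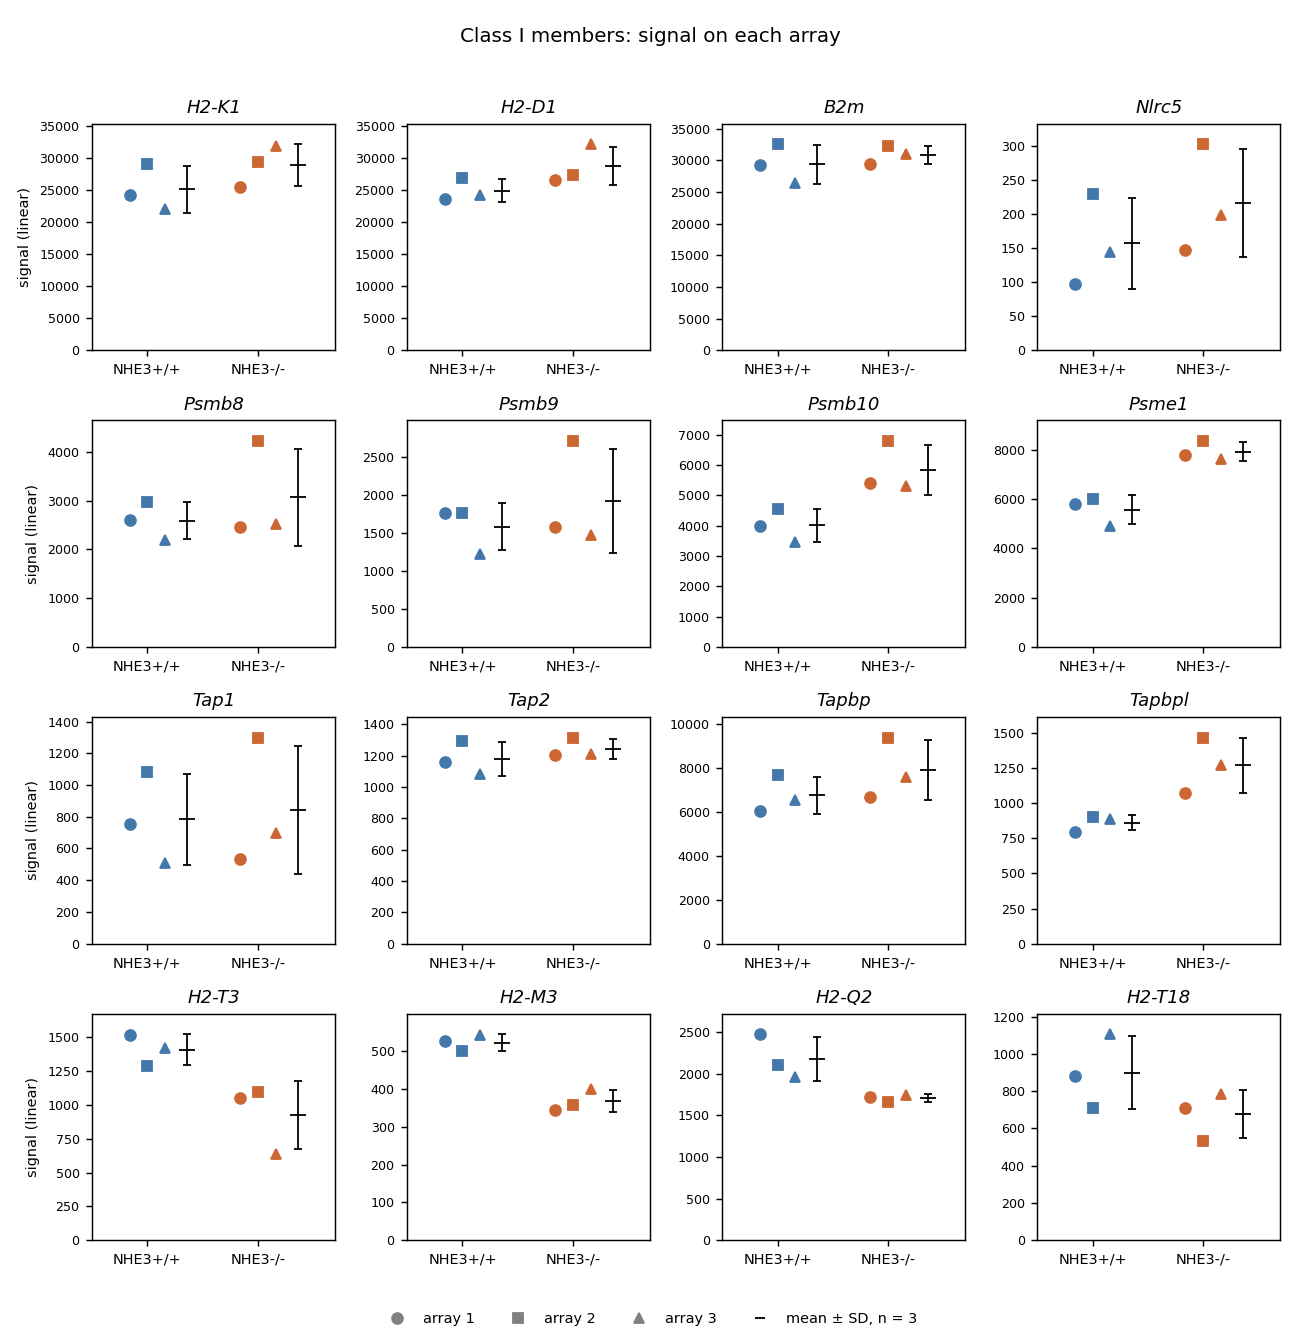
Signal (vertical axis, linear, from 0) of 16 class I members on each array, with blue for NHE3+/+, orange for NHE3-/-, symbols for arrays 1 to 3 and a bar for mean ± SD (n = 3). Psmb10, Psme1 and Tapbpl lie wholly above and H2-T3, H2-M3 and H2-Q2 wholly below the wild-type arrays, while Psmb8, Psmb9 and Tap1 are high on NHE3-/- array 2 alone.

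NHE3-/- array 2 was the highest of its group for 15 of 22 class I members, and 15 of 22 lay above the highest wild-type array there (68.2%), against 5 of 22 on array 1 and 5 of 22 on array 3. Over all probe sets the shares were 23.1%, 24% and 27.5%. Most class I members thus lay above the wild-type range on array 2 only, and most class II members on arrays 2 and 3 (7 and 8 of 12). On each of arrays 2 and 3, 4 of 12 class II members lay below that range. Within the NHE3-/- group, class II members were highest on array 1 for 4, on array 2 for 3 and on array 3 for 5. In wild type, array 2 was the highest of its group for 15 of 22 class I members, as it was for 11 of 12 class II members. The groups did not overlap for 3 class I members in each direction, against 12.2% of all probe sets higher and 20.1% lower. The calls for Psmb10 and Tapbpl depended on arrays. Psmb10 was no longer called when wild-type array 1 (0.54), wild-type array 3 (0.44) or NHE3-/- array 2 (0.43) was left out. Tapbpl lost its call in 5 of the 6 fits without 1 array (0.43 to 0.57), and Psme1 kept its call in all 6. With NHE3-/- array 3 alone none of the 3 was called (Psme1 0.46, Psmb10 0.41, Tapbpl 0.55).

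Genes that control MHC transcription included the receptor of interferon-gamma, both chains of which rose. Ifngr1 had 2718, 2944 and 2585 in wild type and 4890, 4455 and 5090 in NHE3-/- colon (log2 fold change 0.80, SE 0.10, adjusted p = 0.000942), and Ifngr2 had 3078, 2857 and 2235 against 5251, 4148 and 5200 (0.83, SE 0.14, adjusted p = 0.00429). In both, the 3 NHE3-/- arrays were close together and above all wild-type arrays, array 1 included. In this list 5 of 20 measured genes rose and 1 fell, with a median of 0.16, beside 4.97% higher and 6.24% lower over all probe sets. Jak2, the kinase of the receptor, rose by 0.58 (SE 0.13), the transcription factor Irf1 by 0.52 (SE 0.13, adjusted p = 0.0286) and Socs3, a feedback inhibitor of cytokine signalling, by 1.77 (SE 0.17). Creb1, a factor that binds upstream of class II genes, fell by 0.49 on the log2 scale (SE 0.14, adjusted p = 0.0419). As a mean over its probe sets Creb1 had -0.30 (adjusted p = 0.309 by limma), without a call. Rfx5, the DNA-binding subunit of the complex that holds Ciita at class II promoters, had 469, 418 and 528 against 426, 395 and 369 (-0.23, SE 0.16, adjusted p = 0.382), and Ifng itself was under the filter. The Jak2 call was lost without NHE3-/- array 1 (0.56, adjusted p = 0.0519). The Irf1 call was lost when either wild-type array 1 (0.39) or NHE3-/- array 2 (0.44) or 3 (0.52) was left out and after quantile normalization (0.40), and that of Creb1 when any array but wild-type array 1 was left out (-0.37 to -0.55) and with medians set equal (-0.37).

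Of 31 measured partners of antigen processing, 3 rose and none fell, with a median of 0.13, beside the same 4.97% and 6.24% of all probe sets. Ubd, the ubiquitin-like modifier FAT10, rose by 3.18 (SE 0.31) from 275 ± 58.6 to 2987 ± 1723 (SD, n = 3 each). Lgmn, an endosomal protease that starts the cleavage of some antigens, had 816, 479 and 605 in wild type and 1110, 1583 and 1078 in NHE3-/- colon, a rise of 0.96 (SE 0.20, adjusted p = 0.0128), and it lost its call without wild-type array 2 (0.79). Ctsz, a lysosomal carboxypeptidase, rose by 0.61 (SE 0.12) with no overlap. The chaperones of class I folding Calr (0.10), Canx (-0.10) and Pdia3 (0.10) and the thiol reductase Ifi30 (0.19) were not called.

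Of 7 measured genes of costimulation and of receptors for MHC, 1 rose and 2 fell, again beside 4.97% and 6.24% of all probe sets. Icosl, the ligand of the T cell costimulator ICOS, had 274, 252 and 250 in wild type and 415, 563 and 512 in NHE3-/- colon (0.86, SE 0.17, adjusted p = 0.0104). Cd83, a surface protein of mature dendritic cells and B cells, had 472, 575 and 498 against 246, 160 and 130 (-1.41, SE 0.22, adjusted p = 0.00279). Cd40, which receives T cell help on B cells and dendritic cells, had 118, 219 and 99.4 against 53.1, 42.4 and 31.3, without overlap (-1.21, SE 0.33, adjusted p = 0.0391). Its call was lost when any of the 6 arrays was left out (-0.93 to -1.40), and as a mean over its probe sets the log2 fold change was -0.57 (adjusted p = 0.342). Icosl as such a mean had 0.51 (adjusted p = 0.0831), without a call. Both genes that fell were lowest on array 3, as were the B cell markers in sum, and the part of B cells in these values was not tested.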

How the data were processed

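Per the labels' protocols, Trizol-extracted total RNA was turned into biotinylated cRNA and hybridised to single-label arrays. The deposited values are intensity values, 1 signal per probe set and array on a linear scale, made with GCOS per the submitters' processing notes, without a version. How the software was set, and its detection calls, are not known here. Every array had a mean of 500 once the top and bottom 2% of signals were set aside, and median signals ran from 97.8 to 121.4.

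From these, each signal was taken as log2(signal + 31.4), where 31.4 is the 25th percentile over all arrays. Fold changes are on that scale, which understates those of dim genes. Of 45101 probe sets, 64 were controls, and the 27022 whose average reached the 40th percentile were tested with limma 3.58.1 in R 4.3.3 (lmFit, eBayes with trend, a single genotype term, two-sided tests, Benjamini-Hochberg over all tested, threshold 0.05). The fit was tested on simulated data.

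Gene names came from the platform annotation: 34958 probe sets name 1 gene, 932 several and 9211 none. Of the first, 34754 matched RefSeq gene IDs (GRCm38.p6). Each gene was read by its probe set of highest mean signal over the 6 arrays, and 16 members had more than 1. Every member past the filter is named, as are called genes of 4 pathway lists and fixed regulators. The members, lists and settings were chosen with earlier results of these data known. No list was tested as a set. Some marker genes are not analysed here.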

Additional observations from a re-analysis of the deposited data

How the results depend on the processing

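The 16 settings that could change a member's fold change or adjusted p kept the direction of Psme1, Psmb10 and Tapbpl. The 15 that tested H2-Ob kept its direction. These 4 genes were called in 14, 10, 9 and 6 of them. A change of filter, leaving out the variance trend and the replicate block leave the fold change itself as it was, so a direction could not change there. Choosing probe sets by mean log2 signal picked the same ones for all members. For all settings below, the cause was not tested unless the setting itself tests fewer genes or arrays. Class I members called higher numbered 3 and ran from 1 to 3 when 1 array was left out, with 0 without the variance trend and 0 with NHE3-/- array 3 alone. Class I members called lower numbered 0, and 0 to 1 with 1 array left out, 2 with the filter at the 60th percentile, 1 with gene means over probe sets and 1 with NHE3-/- array 3 alone. Class II members called higher numbered 0, and 0 to 5 with 1 array left out, 2 with medians set equal and 5 with NHE3-/- array 3 alone. The 1 class II member called lower was 0 to 1 with 1 array left out, and 0 with a pseudocount of 1, without a filter, with the filter at the 60th percentile (which H2-Ob did not pass), after quantile normalization and without the trend. The class I median of 0.20 ran from 0.060 to 0.31 with 1 array left out and was 0.059 with NHE3-/- array 3 alone, where the class II median was 0.78 (0.24 to 0.61 with 1 array left out). Pathway genes called higher numbered 9 (8 to 9 with 1 array left out), 4 without the trend and 5 with NHE3-/- array 3 alone. Those called lower numbered 3 (1 to 2 with 1 array left out), and 1 without a filter or without the trend.

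Over all probe sets, 1342 higher and 1685 lower became 511 and 558 without the trend and 770 and 785 with gene means. Medians set equal gave 738 lower, NHE3-/- array 3 alone 767 higher and 1268 lower, and leaving out 1 array 839 to 1211 higher and 774 to 1385 lower. No label says that replicate numbers pair samples, so numbers were not taken as pairs. Deviations of arrays of the same number had correlations of 0.026, -0.0375 and 0.0034. These do not speak for the members alone, where array 2 was the highest of its group for 15 of 22 class I members in both genotypes. With the replicate block 1156 probe sets were higher and 1384 lower, 3 class I and 2 class II members (Cd74 and H2-Aa) were higher, and 1 pathway gene was lower.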
